A study of Mus musculus with 8 samples.

Results

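Zfp36, Zfp36l1, Zfp36l2, Zc3h12a, Rc3h1 and Rc3h2 encode RNA-binding proteins that shorten the life of cytokine and activation messages. These 6 genes, out of 52661 in the deposited tables, were taken by symbol. The set was chosen by the values of Zfp36: it was lower in every osteopontin library than in any null library, so its difference between the groups is a description and is not tested. The cells were mouse (C57BL/6) intraepithelial lymphocytes, immune cells of the gut lining, sorted on the leukocyte protein CD45 and held in RPMI with 10% serum at 37 C for 24 h. In 4 libraries the medium held recombinant osteopontin at 2 µg/ml; this secreted protein is a ligand of integrins and of CD44. The other 4 libraries, called null, were cultured without it. Each group has libraries named 1, 2, A and B, and values per library are given in that order. Separate animals or cultures are not stated for them, so p-values measure only the spread among these libraries, part of which may be technical.

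Zfp36 (tristetraprolin) and its relatives Zfp36l1 and Zfp36l2 bind AU-rich elements in the 3′ UTR of messages such as Tnf through paired CCCH zinc fingers, and recruit the CCR4-NOT deadenylase. Zc3h12a (Regnase-1) is an endonuclease that cuts stem-loop structures in 3′ UTRs with the helicase Upf1. Rc3h1 and Rc3h2 (Roquin-1 and Roquin-2) bind similar stem-loops and also bring in CCR4-NOT. In T cells the MALT1 protease cleaves Regnase-1 and the Roquins after antigen receptor signalling, and Zfp36 itself is an immediate-early gene, transcribed within minutes of stimulation.

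The messages of 5 of the 6 factors carry letters of the element that the Zfp36 proteins recognise. The heptamer TATTTAT (written as DNA, sense strand) was counted in the 3′ UTR of the main coding transcript of each gene in GENCODE release M21. It occurred 3 times in the 774 bases of Zfp36, 3 times in the 1835 bases of Zfp36l1, 3 times in the 1822 bases of Zfp36l2, 2 times in the 7181 bases of Rc3h1 and 3 times in the 5160 bases of Rc3h2. It did not occur in the 856 bases of Zc3h12a. Among all genes with a 3′ UTR within 20% of the same length, 19.4% held the heptamer for the length of Zfp36, 38.2% for Zfp36l1, 38.1% for Zfp36l2, 20.4% for Zc3h12a, 77.8% for Rc3h1 and 67.9% for Rc3h2. The longer form TTATTTATT, which contains the heptamer, occurred 1 time in each of the 5 genes. It was held by 4.0% of the UTRs as long as that of Zfp36, by 10.0% for both Zfp36l1 and Zfp36l2, by 27.5% for Rc3h1 and by 22% for Rc3h2. The sites below show the 3 heptamers of Zfp36, which lie within a short stretch of its 3′ UTR, and the site with the longer form in each of the other 4. They are given 5′ to 3′ with the heptamer in capitals. A match describes these letters and does not show binding.
Zfp36 (chr7:28376968-28376992, minus strand, GRCm38): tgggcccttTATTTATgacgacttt
Zfp36 (chr7:28376953-28376977, minus strand): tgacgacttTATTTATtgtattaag
Zfp36 (chr7:28376928-28376952, minus strand): attttatagTATTTATatatattgg
Zfp36l1 (chr12:80108169-80108193, minus strand): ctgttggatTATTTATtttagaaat
Zfp36l2 (chr17:84184916-84184940, minus strand): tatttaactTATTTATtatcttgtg
Rc3h1 (chr1:160970045-160970069, plus strand): tttactcatTATTTATtgagatgag
Rc3h2 (chr2:37373289-37373313, minus strand): aagacatttTATTTATtttactctg

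The Zfp36 promoter is shown because Zfp36 is an immediate-early gene and that class is set beside it further on. RefSeq sequence (GRCm38.p6) was held for 5 of the 6 genes, all but Zfp36l2, from 250 bases before to 50 after the start. Motifs were searched on both strands: TATAAA, GCGNGGGCG (Egr site), TGANTCA (AP-1 site), TGACGT (CRE core), TTCNNNGAA (GAS site) and the CArG box bound by serum response factor. Zfp36 held an Egr site at -105, a CArG box at -58 and a GAS site at -17 relative to the start. These motifs were in 5.6%, 1.6% and 8.3% of all 32851 promoters of this length, and they are the capitals in the sequence below.
Zfp36 promoter (chr7:28379179-28379478, minus strand): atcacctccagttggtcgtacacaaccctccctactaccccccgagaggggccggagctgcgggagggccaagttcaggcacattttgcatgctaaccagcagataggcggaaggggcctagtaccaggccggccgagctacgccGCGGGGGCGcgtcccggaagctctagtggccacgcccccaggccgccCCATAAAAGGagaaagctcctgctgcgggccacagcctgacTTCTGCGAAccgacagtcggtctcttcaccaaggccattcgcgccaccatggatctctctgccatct
Zfp36l1 held a TATA box at -29 and an AP-1 site at -129, and Rc3h1 held an AP-1 site at -133.

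Library totals ranged from 49108969 to 71399847 estimated reads, and a count of 3 reads, the floor that counting error sets, was 0.0420 to 0.0611 CPM, a gene's reads scaled to the size of the library. All 6 genes passed the filter on low counts. The 10 T cell and intraepithelial markers, among them Ptprc, Cd3e, Cd8a and Itgae, were all above the floor in every library and summed to 5913 to 6301 CPM with osteopontin and 5602 to 6015 CPM in null libraries. Other cell types differed between single libraries. The 8 fibroblast markers summed to 7.01 to 25.5 CPM with osteopontin and to 322.0, 11.6, 175.7 and 6.74 CPM in null libraries 1, 2, A and B. The 6 endothelial markers summed to 124.7 CPM in osteopontin library B, 127.9 CPM in null library 2 and 130.9 CPM in null library B, and to 57.8 to 83.1 CPM in the other 5. Most of each sum was Pecam1, at 56.9 to 78.5 CPM with osteopontin and 71.6 to 85.0 CPM in null libraries. Every other endothelial marker was highest in osteopontin library B and null libraries 2 and B. Among them, Cdh5 stood at 2.19, 0.177, 0.480 and 15.8 CPM with osteopontin, against 1.59, 16.4, 1.62 and 14.7 CPM in null libraries. In bulk RNA, fewer cells of a type and less RNA per cell cannot be told apart. In the fit across all 18631 tested genes (edgeR's quasi-likelihood test, Benjamini-Hochberg adjusted p under 0.05) the share called was 0%, and 3.93% had an unadjusted p under 0.05, 2.08% of all on the lower side. DESeq2, run as an alternative, called 0.091% higher and 0.255% lower.

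Levels between genes were compared in TPM, a transcript abundance scaled to library size and corrected for length. Zfp36l2 had the highest level, at 266.3 ± 25.98 TPM over all libraries (SD, n = 8), which placed it at rank 507 of all genes. Zfp36l1 followed at 158.5 ± 8.52 TPM, at rank 995, and Zfp36 at 54.0 ± 7.73 TPM, at rank 3671. Zfp36l2 exceeded Zfp36l1, Zfp36l1 exceeded Zfp36, and Zfp36 exceeded Zc3h12a in 8 of 8 libraries, with no overlap between their ranges. Zc3h12a stood at 28.1 ± 5.70 TPM, Rc3h2 at 20.3 ± 2.11 TPM and Rc3h1 at 18.2 ± 1.38 TPM. Zc3h12a lay above Rc3h2 in 8 of 8 libraries and Rc3h2 above Rc3h1 in 7 of 8, but the ranges of both pairs overlapped. These levels include retained-intron models. In osteopontin library B the coding model of Zc3h12a alone stood at 13.6 TPM. The 8799-base and 8948-base coding models of Rc3h2 stood at 7.70 and 8.70 TPM there, together above it. In every other library the Zc3h12a coding model lay above that pair. The coding models of Rc3h1 together exceeded those of Rc3h2 in every library but null library B. The whole-gene order of these 2 genes thus depended on retained-intron models. With osteopontin the 3476-base and 11006-base models of Rc3h1 averaged 4.644 and 13.84 TPM. The Rc3h2 pair averaged 8.574 and 8.36 TPM. In null libraries the means were 3.506 and 13.96 TPM for Rc3h1 and 7.928 and 8.062 TPM for Rc3h2. The AU-rich element binders held most of the summed TPM of the 6 genes, with Zfp36l2 alone at 51.0% ± 1.81 with osteopontin and 46.5% ± 2.44 in null libraries (SD, n = 4 each). Zfp36 made up 8.46% ± 0.452 with osteopontin and 11.4% ± 0.865 in null libraries.

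**Figure D1:**
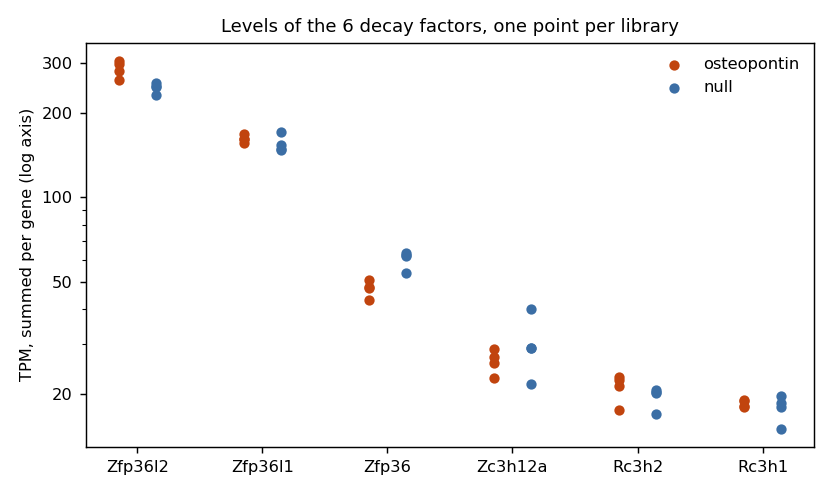
Level of each decay factor in TPM (log axis), 1 point per library, osteopontin left of null within each gene. The ranges of Zfp36l2, Zfp36l1, Zfp36 and Zc3h12a do not overlap each other, and the range of Zc3h12a meets that of Rc3h2.

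Zfp36 (ENSMUSG00000044786.6, chromosome 7, 28376784 to 28380253 on GRCm38, minus strand) gave the values that chose the set. It stood at 84.6, 76.0, 83.1 and 83.7 CPM with osteopontin, against 106.8, 94.1, 107.2 and 110.4 CPM in null libraries. The groups did not overlap: the highest osteopontin value was 84.6 CPM and the lowest null value 94.1 CPM. The means were 81.8 ± 3.95 CPM with osteopontin and 104.6 ± 7.20 CPM in null libraries (SD, n = 4 each), a log2 fold change of -0.35 (SE 0.08). Of all tested genes, 1.58% were lower and 1.89% higher with osteopontin without overlap, 3.47% in either direction. The coefficient of variation among libraries was 4.82% with osteopontin and 6.88% in null libraries. The log2 fold change was -0.32 within the libraries named by digits, -0.39 within those named by letters, and -0.32 without the null libraries 1 and A that carried fibroblast transcripts. Groups that do not overlap keep their sign in any subset of libraries, so the choice of the set fixed these signs.

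Of the 2 transcript models of Zfp36, 1 separated the groups and 1 did not. Both are parts of the gene value that chose the set, so this is a description. The share of all transcripts that separate the groups was not computed, and whether the models differ in their response was not tested. Zfp36-201 is the spliced message with 2 exons, and Zfp36-202 is a single exon that keeps the 680-base intron of the gene (28378494 to 28379173). The intron-keeping model stood at 13.1, 13.1, 16.8 and 23.6 TPM with osteopontin, against 25.2, 28.0, 28.7 and 24.9 TPM in null libraries. These groups did not overlap, with means of 16.7 ± 4.92 TPM with osteopontin and 26.7 ± 1.91 TPM in null libraries (SD, n = 4 each), a log2 ratio of the means of -0.68. The spliced model stood at 35.1, 30.1, 30.8 and 27.4 TPM with osteopontin and at 37.2, 26.02, 33.3 and 38.3 TPM in null libraries. Here the groups overlapped, at 30.8 ± 3.18 TPM with osteopontin and 33.7 ± 5.56 TPM in null libraries, a log2 ratio of -0.13. The intron-keeping model held 34.8% ± 8.33 of the gene's TPM with osteopontin and 44.5% ± 5.78 in null libraries, and these shares overlapped. Both models share 1785 bases. Of the 1005 bases found only in the spliced model, most lie upstream of the RefSeq start of the gene. The split rests on the reads in those bases, in the intron and across the junction of the 2 exons. The submitters' Salmon run divided these reads, and its own uncertainty is not given in the tables.

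**Figure D2:**
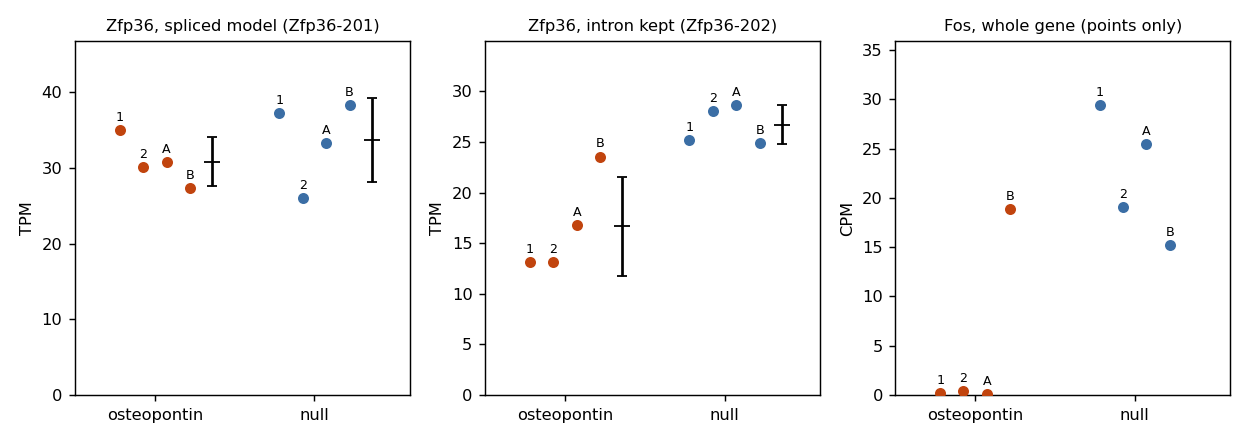
TPM of the spliced and of the intron-keeping Zfp36 model and CPM of Fos in each library (points, library names above), with mean and SD bars for the Zfp36 models. The intron-keeping model separates the groups, with osteopontin library B nearest to the null libraries; the same library holds the 1 high Fos value among the osteopontin libraries.

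Among the osteopontin libraries, library B had the highest level of the intron-keeping model, and it also differed in other immediate-early messages. Fos, which encodes an AP-1 subunit, stood at 0.225, 0.427, 0.103 and 18.9 CPM with osteopontin, the last value being library B, against 29.4, 19.1, 25.4 and 15.2 CPM in null libraries. Hspa1a, a stress-induced chaperone, stood at 0.8285, 0.280, 0.583 and 30.6 CPM with osteopontin, against 13.7, 37.0, 16.7 and 28.8 CPM in null libraries. The whole-gene level of Zfp36 in osteopontin library B, 83.7 CPM, was within the range of the other 3 osteopontin libraries. Without that library the log2 fold change of Zfp36 was -0.37, with its sign again fixed by the choice of the set. The 7 B and plasma cell markers summed to 4452, 7431, 9012 and 4154 CPM with osteopontin, against 5187, 7242, 9901 and 3665 CPM in null libraries, low in both B libraries. The part of other cell types in the Zfp36 values was not tested.

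Zfp36l2 (ENSMUSG00000045817.8, chromosome 17, 84183931 to 84187947, minus strand), which restrains proliferation in lymphocyte precursors and T cell cytokine output, went in the other direction from Zfp36. It stood at 696.9, 660.1, 613.8 and 684.8 CPM with osteopontin, against 572.6, 613.3, 548.5 and 589.3 CPM in null libraries. All osteopontin values lay above all null values, although osteopontin library A at 613.8 CPM and null library 2 at 613.3 CPM nearly met. The means were 663.9 ± 36.8 CPM with osteopontin and 580.9 ± 27.3 CPM in null libraries (SD, n = 4 each), a log2 fold change of 0.19 (SE 0.06, 95% interval 0.06 to 0.32 before adjustment, edgeR adjusted p = 1.00). It was not called, nor was it by DESeq2 (adjusted p = 0.117). The gene has 1 transcript model, so no division between isoforms entered this value. The ratio of Zfp36 to Zfp36l2 in TPM was 0.162, 0.154, 0.182 and 0.167 with osteopontin, against 0.253, 0.211, 0.267 and 0.254 in the null libraries. This ratio contains the value that chose the set and is given as a description.

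Zfp36l1 (ENSMUSG00000021127.7, chromosome 12, 80107754 to 80113013, minus strand), which acts with Zfp36l2 in lymphocyte development, did not pass the test. It stood at 325.9, 306.6, 311.7 and 301.9 CPM with osteopontin, against 298.6, 298.3, 311.6 and 279.1 CPM in null libraries. The groups overlapped, with means of 311.5 ± 10.4 CPM with osteopontin and 296.9 ± 13.4 CPM in null libraries (SD, n = 4 each). The log2 fold change was 0.07 (SE 0.06, 95% interval -0.06 to 0.20, edgeR adjusted p = 1.00). Its full-length model held 98.2% ± 1.86 of the gene's TPM with osteopontin and 94.7% ± 5.80 in null libraries. In null library A a 545-base model held 9.33% of the TPM and in null library B a 1934-base model held 11.3%.

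**Figure D3:**
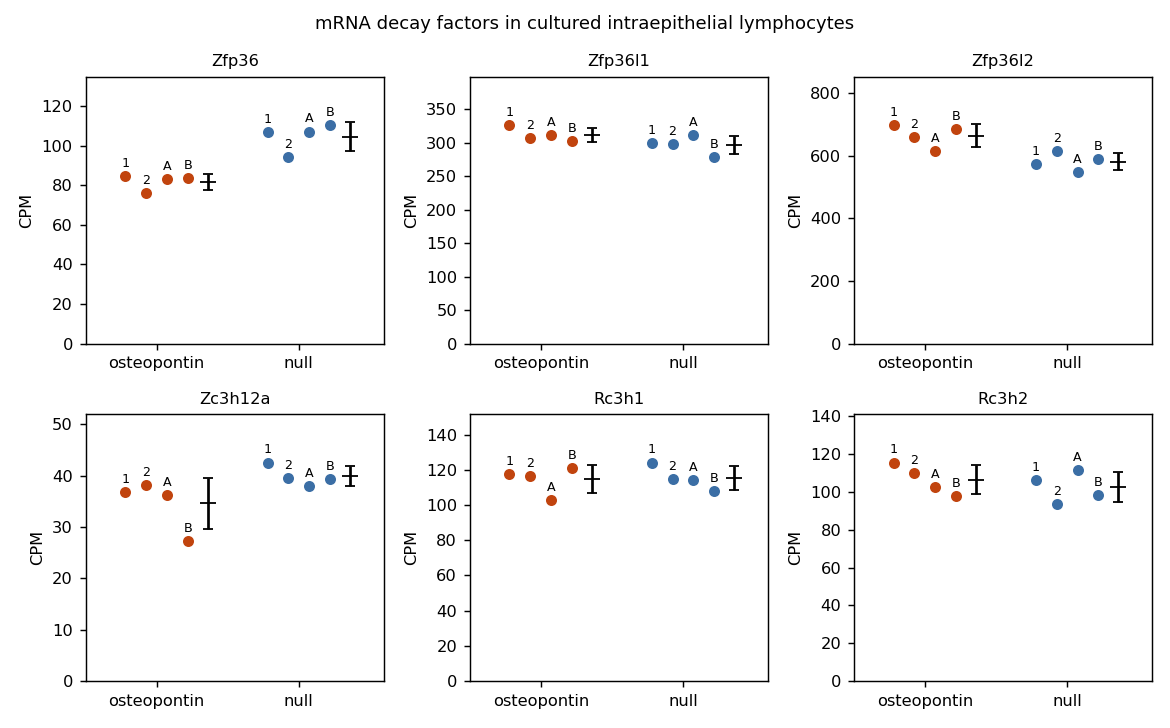
CPM of the 6 decay factors in each library (points, library names above) with mean and SD bars, osteopontin left of null, all axes from 0. Zfp36 is lower and Zfp36l2 higher with osteopontin without overlap, and the other 4 genes overlap between the groups.

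Zc3h12a (ENSMUSG00000042677.7, chromosome 4, 125118423 to 125127840, minus strand) did not pass the test. It stood at 36.9, 38.1, 36.1 and 27.2 CPM with osteopontin, against 42.5, 39.6, 38.0 and 39.3 CPM in null libraries. Osteopontin library B was the lowest of all, and osteopontin library 2 at 38.1 CPM lay just above null library A. The means were 34.6 ± 5.0 CPM with osteopontin and 39.9 ± 1.90 CPM in null libraries (SD, n = 4 each), with a log2 fold change of -0.20 (SE 0.12, 95% interval -0.47 to 0.06, edgeR adjusted p = 1.00). Without osteopontin library B the log2 fold change was -0.11. A 660-base model with a retained intron took 11.8% to 47.0% of the gene's TPM with osteopontin and 0% to 49.5% in null libraries. It rested on at most 369.5 estimated reads per library. The coding model alone stood at 17.9 ± 3.004 TPM with osteopontin and 20.3 ± 1.02 TPM in null libraries, and the whole gene at 26.1 ± 2.57 TPM with osteopontin and 30.1 ± 7.67 TPM in null libraries (SD, n = 4 each).

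The Roquin genes did not pass the test, and their groups overlapped. Rc3h1 (ENSMUSG00000040423.10, chromosome 1, 160906418 to 160974978, plus strand) stood at 117.9, 116.6, 103.1 and 121.4 CPM with osteopontin, against 124.3, 114.8, 114.2 and 107.9 CPM in null libraries. Its log2 fold change was -0.01 (SE 0.07, 95% interval -0.16 to 0.15, edgeR adjusted p = 1.00), and its sign turned in 7 of 21 alternative analyses. Rc3h2 (ENSMUSG00000075376.10, chromosome 2, 37370069 to 37422903, minus strand) stood at 115.6, 109.8, 102.6 and 98.0 CPM with osteopontin and at 106.6, 93.8, 111.5 and 98.3 CPM in null libraries. Its log2 fold change was 0.05 (SE 0.08, 95% interval -0.11 to 0.22, edgeR adjusted p = 1.00), and it was -0.07 within the letter-named libraries.

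Each Roquin gene was expressed as a pair of coding models. For Rc3h1 the 11006-base model, which has the long 3′ UTR with the site shown above, held 74.8% ± 8.20 of the TPM with osteopontin and 78.8% ± 7.82 in null libraries (SD, n = 4 each). The 3476-base model, of which 3363 bases are coding, held 25.2% ± 8.20 with osteopontin and 19.3% ± 6.69 in null libraries. For Rc3h2 the 8799-base model held 40.9% ± 2.87 with osteopontin and 40.4% ± 7.63 in null libraries, and the 8948-base model 40.2% ± 8.40 with osteopontin and 41.8% ± 8.55 in null libraries. The 5 retained-intron models of Rc3h2 together held 15.7%, 24.7%, 28.4% and 6.80% of its TPM with osteopontin, against 15.6%, 30.1%, 13.0% and 10.4% in the null libraries. A 575-base model among them held 0.456% to 19.2% with osteopontin and 0% to 22.6% in null libraries. It rested on at most 80.1 estimated reads per library, and TPM corrects for length, so its share of the reads was far smaller. All of these shares overlapped between the groups.

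The machinery that these proteins recruit was present throughout, and 0 of its genes were called, beside 0% of all tested genes. Of 17 tested deadenylation genes 9 were fitted higher and 8 lower with osteopontin, with a median log2 fold change of 0.03, against 0.00 over all tested genes. Cnot1, the scaffold of CCR4-NOT, stood at 378.0 to 430.5 CPM with osteopontin and 387.0 to 404.4 CPM in null libraries. The members with the smallest p were Pan2, Parn and Btg1. The deadenylase subunit Pan2 stood at 168.7 to 207.3 CPM with osteopontin and 141.6 to 186.5 CPM in null libraries (log2 fold change 0.22). The deadenylase Parn had 28.8 to 39.5 CPM with osteopontin and 37.6 to 49.4 CPM in null libraries (-0.29). The CCR4-NOT adaptor Btg1 had 736.4 to 818.5 CPM with osteopontin and 774.6 to 879.3 CPM in null libraries (-0.11). Of 16 decapping and exonuclease genes 9 were fitted higher and 7 lower (median 0.01), with the Lsm ring subunits Lsm7 (-0.24) and Lsm1 (-0.19) and the Regnase-1 helicase Upf1 (-0.10) nearest the threshold. The edgeR adjusted p was 1.00 for each of these 6.

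Regulators of the decay factors and other element-binding proteins also had 0 called genes, beside 0% of all tested genes. Of 18 kinases, adaptors, proteases and partners 7 were fitted higher and 11 lower (median log2 fold change -0.02). Malt1, the protease that cleaves Regnase-1 and the Roquins, stood at 125.8, 112.5, 120.3 and 112.8 CPM with osteopontin, against 137.6, 121.9, 123.6 and 129.8 CPM in null libraries (-0.12). The phosphoprotein-binding adaptors Ywhab (-0.17) and Ywhaz (-0.09) were the other members with the smallest p. Of 9 other element-binding proteins 6 were fitted higher (median 0.04), with Ago2 at 273.2 to 308.3 CPM with osteopontin and 225.8 to 271.1 CPM in null libraries (0.19), Celf1 (0.16) and Tia1 (0.15) first by p. Of the 3 tested family relatives, Zc3h12d (Regnase-4) was the most abundant, at 30.9 to 44.5 CPM with osteopontin and 37.5 to 46.3 CPM in null libraries (-0.18). Zc3h12c (-0.48) and Zc3h12b (0.66) stood under 6 CPM in every library, and Zfp36l3 had at most 13 reads and was not tested. The edgeR adjusted p was 1.00 for each gene named here that was tested.

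**Figure D4:**
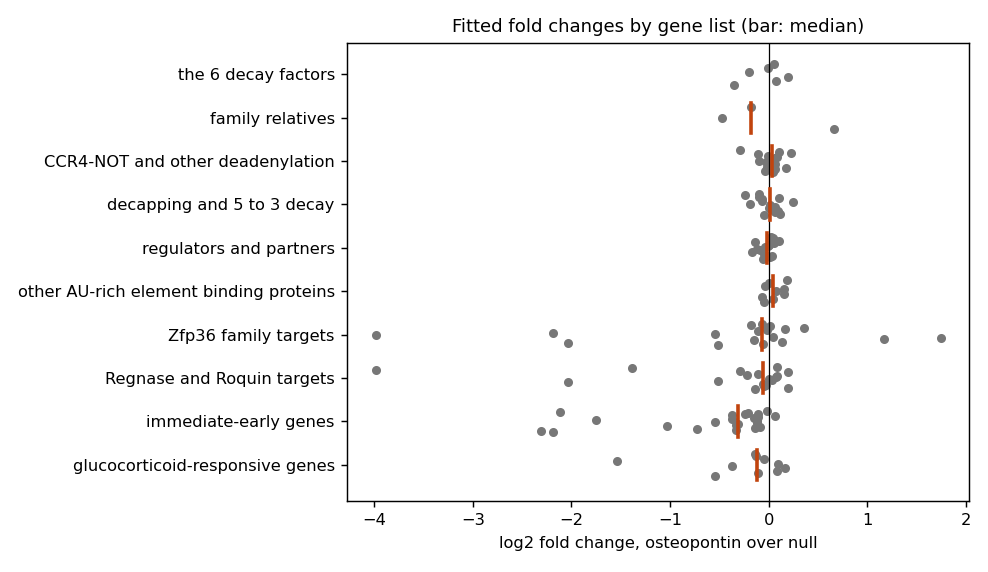
Fitted log2 fold change (osteopontin over null) of each tested gene by list, with the list median as a bar except for the 6 decay factors. The decay machinery lies close to 0, and 22 of 23 immediate-early genes lie below it.

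Among messages known as targets of these proteins, 0 were called, beside 0% of all tested genes. Of the 24 listed Zfp36 family targets 18 had enough reads to be tested; 7 were fitted higher and 11 lower (median log2 fold change -0.06), and of 18 tested Regnase and Roquin targets, from 22 listed, 7 were higher and 11 lower (median -0.06). The cytokine targets named here stood under 6 CPM in every library. Tnf, the classical Zfp36 target, stood at 1.84, 2.53, 3.50 and 0.0203 CPM with osteopontin, against 2.11, 3.13, 1.70 and 4.32 CPM in null libraries. Its value in osteopontin library B was under the floor. Ifng stood at 2.37, 3.30, 3.17 and 3.13 CPM with osteopontin and at 1.56, 2.34, 1.34 and 0.0767 CPM in null libraries (log2 fold change 1.17, SE 0.70, edgeR adjusted p = 1.00). The Ifng groups did not overlap, although osteopontin library 1 and null library 2 nearly met. Il2 stood at 1.94 to 4.69 CPM with osteopontin and 2.51 to 3.87 CPM in null libraries.

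The chemokine Cxcl1, on both target lists, had the smallest p of each list. It stood at 0.0281, 0.0147, 0.0172 and 0.630 CPM with osteopontin, against 5.73, 0.440, 4.44 and 0.184 CPM in null libraries. Osteopontin libraries 1, 2 and A were under the floor. Null libraries 1 and A, which held the fibroblast transcripts, were the high ones, and Il6 stood at 2.84 and 2.01 CPM in these same libraries and at 0 to 0.772 CPM in the other 6. The part of fibroblast RNA in these values was not tested. Targets with higher levels moved by different amounts. Fos is also on the Zfp36 target list, and its values per library are given above. It was fitted at -2.19 on the log2 scale (SE 1.65, edgeR adjusted p = 1.00) and was called without osteopontin library B. That library had been seen beforehand to stand apart in Fos, so the call follows from its Fos value and is a description. Icos, the Roquin target, stood at 33.1 to 38.2 CPM with osteopontin and 36.9 to 47.2 CPM in null libraries (log2 fold change -0.14). The kinase gene Pim1 had 417.7 to 464.7 CPM with osteopontin and 410.5 to 498.8 CPM in null libraries (-0.02), and Nfkbiz, which encodes a nuclear IκB protein, had 103.0 to 137.3 CPM with osteopontin and 113.1 to 125.0 CPM in null libraries (0.07). Notch1 had 130.7 to 157.0 CPM with osteopontin and 138.5 to 146.7 CPM in null libraries (0.02). The transferrin receptor Tfrc (0.19) and the prolyl hydroxylase Egln3 (-0.29) followed Cxcl1 by p among the Regnase and Roquin targets. Icos, Pim1, Nfkbiz and Notch1 were chosen after their values were seen.

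Immediate-early genes, the class to which Zfp36 belongs, were mostly fitted lower with osteopontin. The fit called 0 of 23, beside 0% of all tested genes. Of them 1 was fitted higher and 22 lower, with a median log2 fold change of -0.31, beside 9335 higher and 9296 lower with a median of 0.00 over all tested genes. In the list 2 were lower without overlap, beside 1.58% of all tested genes, and 3 had an unadjusted p under 0.05, beside 3.93%. Without null libraries 1 and A, which held the fibroblast transcripts, the median was -0.23, and the part of fibroblast RNA was not tested. Atf3, a stress-induced transcription factor, stood at 1.42, 1.08, 1.30 and 5.02 CPM with osteopontin, against 9.01, 6.41, 8.68 and 5.50 CPM in null libraries (log2 fold change -1.75, SE 0.47). Klf4 stood at 2.49, 0.559, 1.73 and 7.40 CPM with osteopontin and at 12.4, 10.5, 14.3 and 15.6 CPM in null libraries (-2.12, SE 0.68). Egr1 stood at 12.8, 8.22, 11.01 and 24.0 CPM with osteopontin and at 37.2, 19.9, 38.6 and 18.7 CPM in null libraries (-1.03, SE 0.39). Each of these 3 genes was highest in library B among the osteopontin libraries, and each had an edgeR adjusted p of 1.00. Without osteopontin library B the edgeR fit called 4 of the 23 lower, beside 2 higher and 35 lower of all 19815 tested genes. The 4 were Fos (log2 fold change -6.44, adjusted p = 3.56e-05), Atf3 (-2.55, 0.00537), Jun (-1.12, 0.00597) and Klf4 (-3.05, 0.00618). Without both B libraries it called these 4 and Egr1, beside 1 higher and 48 lower of 19451. Library B had been seen beforehand to stand apart in Fos. All of these genes were highest in it among the osteopontin libraries, so the calls are descriptions. Other members differed little: Junb stood at 86.6 to 112.9 CPM with osteopontin and 97.0 to 120.9 CPM in null libraries (-0.14), and Klf6 at 214.0 to 230.0 CPM with osteopontin and 206.9 to 243.4 CPM in null libraries (-0.02).

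Glucocorticoid-responsive genes, which in other cells include Zfp36, had 3 fitted higher and 7 lower of 10, with a median of -0.12. In this list 0 were called, beside 0% of all tested genes. Without osteopontin library A the median was -0.0052 and without null library B -0.030. Tsc22d3, which encodes GILZ, stood at 45.2, 40.1, 39.6 and 31.2 CPM with osteopontin, against 60.9, 49.99, 47.0 and 70.3 CPM in null libraries (log2 fold change -0.55, SE 0.14). Its groups did not overlap. Cebpd (-1.54) and Dusp1 (-0.37) were the next by p, and these 3 had an edgeR adjusted p of 1.00. Fkbp5 (-0.10), Per1 (0.08) and Sgk1 (0.17), induced by the same hormone, overlapped between the groups.

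Over the 9625 genes compared, which averaged 5 CPM or more, genes whose level ran close to Zfp36 over the 8 libraries included Lbhd1, Tyro3, Tigar, N4bp3 and Cxcr5. Pearson's r ran from 0.943 for Lbhd1 to 0.932 for Cxcr5 and Spearman's rho from 0.881 to 0.952. The libraries of the 2 groups lie apart in Zfp36, so such an r includes the group difference, and with the group means removed the same r ran from 0.558 for Tyro3 to 0.850 for Tigar. Tyro3 stood at 6.28, 5.40, 5.80 and 6.18 CPM with osteopontin, against 8.06, 8.69, 9.70 and 9.63 CPM in null libraries. For the other factors the closest genes were Lmf2 and Slc38a9 for Zfp36l1 (r = 0.954 and 0.939), Chka and Pef1 for Zfp36l2 (0.961 and 0.954), Tmem147 and Gtf2e2 for Zc3h12a (0.990 and 0.986), Glcci1 and Gorasp2 for Rc3h1 (0.968 and 0.952), and Mss51 and Baz2a for Rc3h2 (0.984 and 0.940). These are the highest of many correlations over 8 libraries that share depth and processing, and are descriptions. Among the decay factors themselves, Zfp36 and Zfp36l2 had r = -0.821 over the 8 libraries and -0.272 with the group means removed, and Zfp36l1 and Rc3h2 had 0.695 and 0.680.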

How the data were processed

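RNA from 8 libraries was measured as total RNA in stranded Illumina libraries, per the labels' protocols. The submitters' processing notes name Salmon, with the version, transcript release and build not given in the sources used here. Deposited were, per the file headers, estimated counts per transcript and TPM. Of the 133618 transcripts, 131233 had the same versioned identifier and length in GENCODE release M21 (GRCm38), among them all 22 of the 6 genes, and positions, gene models and 3′ UTRs come from that release.

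The transcripts' estimated counts were added up within each gene and rounded. The test was edgeR 4.0.16's quasi-likelihood F test (robust, two-sided, no covariate), with low genes removed by filterByExpr (minimum count 10) and TMM scaling, adjusted over all 18631 genes, and checked on simulated data. CPM values use TMM-scaled totals, marker sums plain totals. Each standard error is |log2 fold change| over the root of its F value; intervals use the moderated degrees of freedom. Counting floors cover counting error only. For the sums and levels of several genes no test was made. Log2 CPM for correlations used a prior count of 2.

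The alternatives were RLE scaling, DESeq2 1.42.0, limma 3.58.1 (voom, and log2 of TPM with pseudocounts of 1 and 0.1 on genes with a TPM of at least 1 in at least 4 libraries), no filter, a replicate block, the kind of library name (digit or letter) as a covariate or as subsets, protein-coding transcripts only, and leaving out libraries. The labels state no pairs, so the names were not taken as pairs in the main test. Libraries of the same name deviated together with correlations of 0.0437 to 0.123 over genes. Each osteopontin library deviated most like the null library of its name, so a pairing remains possible. Named list genes were, per list, the 3 with the smallest p; Fos and Hspa1a were named for their values in osteopontin library B, and Cnot1, Tnf, Il2, Il6, Icos, Pim1, Nfkbiz, Notch1, Jun, Junb, Klf6, Fkbp5, Per1 and Sgk1 were chosen after their values were seen. Genes close to a factor were those with the highest Pearson's r (6 for Zfp36, 2 for each other factor), of which 1 is not reported here. The 6 genes, the lists and the tests were chosen with earlier results of these data known.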

Additional observations from a re-analysis of the deposited data

Results flagged for a closer look

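Of 24 groups of 4 values examined (6 genes, CPM and TPM, both groups), 2 held a library far from the other 3 by Dixon's criterion, which chance meets in about 1 of 20 groups. Zfp36 stood at 54.1 TPM in null library 2, against 62.0 TPM in the next lowest null library. Rc3h2 stood at 17.0 TPM in null library B, against 20.2 TPM in the next lowest.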

How the results depend on the processing

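The log2 fold change of Zfp36 ran from -0.40 to -0.32 over 21 alternatives, that of Zfp36l2 from 0.14 to 0.23, of Zfp36l1 from 0.04 to 0.11 and of Zc3h12a from -0.29 to -0.11, with no turn of sign and no call for the last 3. The sign of Zfp36 could not turn on leaving out libraries, because the set was chosen for its lack of overlap. Rc3h1 turned to 0.012 in the letter-named libraries, 0.018 with protein-coding transcripts, 0.055 and 0.058 on TPM, 0.042 without null libraries 1 and A, 0.039 without osteopontin library A and 0.027 without null library 1. Rc3h2 turned to -0.068 in the letter-named libraries. Leaving out 1 library gave Rc3h1 -0.039 to 0.039 and Rc3h2 0.01 to 0.10. The cause was not tested.

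Over all genes, where edgeR called 0 higher and 0 lower, DESeq2 called 20 and 56, no filter 3 and 1, the digit-named libraries 1 and 15, the letter-named 0 and 1, log2(TPM + 1) 0 and 1, and the set without both B libraries 1 and 48. Leaving out 1 library gave 0 to 2 higher and 0 to 35 lower, the most without osteopontin library B (2 and 35). The replicate block called 0 and 0 and gave Zfp36 -0.35; every osteopontin library deviated most like the null library of its own name, a hint only.

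Median log2 fold changes moved for deadenylation to 0.082 and 0.084 and for decapping to 0.064 and 0.065 on TPM (pseudocounts 1 and 0.1), where the median of all genes was 0.02. Without null libraries 1 and A they moved to -0.031 for decapping and -0.014 for other element-binding proteins, which had -0.014 in the letter-named libraries. Regnase and Roquin targets moved to -0.12 (DESeq2), -0.13 (no filter) and -0.13 (digit-named), and glucocorticoid genes to -0.24 (letter-named), with -0.17 to -0.0052 on leaving out 1 library. Leaving out 1 library gave -0.055 to 0.0012 for regulators, -0.17 to -0.015 for Zfp36 targets and -0.14 to -0.015 for Regnase and Roquin targets. DESeq2 called Ptgs2 lower (log2 fold change -5.88) on both target lists (1 each) and 1 immediate-early gene, Klf4. Ptgs2 had at most 189 reads in any library and was removed by the filter of the main test. The digit-named libraries called 1, Fos, which is on the Zfp36 target and immediate-early lists. Without both B libraries 2 Zfp36 targets (Fos and Cxcl1), 1 Regnase target (Cxcl1) and 5 immediate-early genes were called, and leaving out 1 library called 0 to 1 Zfp36 targets and 0 to 4 immediate-early genes. Cxcl1 was under the floor of 3 reads in 3 libraries, Il6 in 2 and Tnf in 1.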
